A study of Mus musculus with 6 samples.

Results

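The genes examined here encode the contractile apparatus of smooth muscle and of myofibroblasts, the fibroblasts that assemble actin stress fibers and pull on their matrix. The 10 genes were chosen by name and are Acta2, Acta1, Actg2, Myl9, Myh11, Tagln, Cnn1, Tpm2, Cald1 and Des, out of 41126 genes in the table of all genes. RNA-sequencing had been performed on 6 cultures of primary mouse dermal fibroblasts taken from ventral skin at postnatal day 4, from animals of a mixed CD1 and C57Bl6 background. Each animal was cultured separately and passaged before infection. The 3 control cultures received an adenovirus coding for GFP (AdGFP) and are labelled +/+, whereas the 3 Gain of Function (GOF) cultures received an adenovirus coding for Cre recombinase (AdCre) and are labelled Ctnnb1{delta}ex3/+. Cre removes exon 3 from 1 allele of Ctnnb1, the β-catenin gene, which leaves a protein that escapes degradation and keeps Wnt signaling switched on. The labels' treatment text names AdCre at 366 to 500 MOI for 6 h for every culture, and the study's methods place the floxed allele in the controls too, so the record of the controls is not uniform. The virus and β-catenin differ together between the groups and cannot be told apart. Each sample title opens with a number, which was read here as the animal. By it the cultures came from 4 animals, of which 2 gave a culture to each group. For those 2, the labels +/+ and Ctnnb1{delta}ex3/+ stand on cultures with the same number. Animal A gave Control replicate 0 and GOF replicate 2, and animal B gave Control replicate 2 and GOF replicate 0. Control replicate 1 and GOF replicate 1 came from different animals.

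Contraction in these cells rests on filaments of actin that slide along myosin once the regulatory light chain of myosin is phosphorylated. Tropomyosin, calponin, caldesmon and transgelin lie along the actin filaments and set how myosin meets them, and desmin forms the intermediate filament around the apparatus. Fibroblasts in culture on stiff plastic are known to acquire part of this program, and α-smooth muscle actin, the product of Acta2, is the usual marker of the myofibroblast. Many of these genes are known targets of serum response factor (SRF), which binds a DNA element called the CArG box and works with actin-sensitive cofactors.

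The fragments listed over all genes summed to between 35980831 and 42834467 in a library. Genes marked as having too many fragments were listed at 0 and are missing from these sums. Among them were Actb in GOF samples, Col3a1 and Postn in control samples, and Thbs1 in all 6 libraries. A fragment is a sequenced read pair, and the values per gene are the estimates of the authors' Cuffdiff run. Levels are given in FPKM, fragments scaled by the length of the transcript and by the depth of the library, which can be set side by side between genes. Differences are log2 fold changes of GOF over control fitted with edgeR to the fragments, so they need not equal the ratio of the FPKM values. Axin2, which β-catenin is known to switch on directly, was between 0.136 and 0.177 FPKM in control and between 14.4 and 19.2 FPKM in GOF samples. All 10 contractile genes had a usable estimate in each of the 6 libraries and passed the filter on low counts, which left 15462 genes to test. Together they took 1.0%, 0.869% and 0.815% of the fragments in Control replicates 0, 1 and 2, and 1.13%, 1.07% and 1.43% in GOF replicates 0, 1 and 2. The groups did not overlap in this share of the listed fragments, whose sums leave out different abundant genes in each group. In summed FPKM of the 10 genes the groups did overlap, with Control replicate 0 at 4727 and GOF replicate 1 at 4613.

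At an adjusted p under 0.05 with edgeR, skeletal and enteric actin, calponin and the myosin light chain were the contractile genes that rose. Acta2, the most abundant of the 10, did not pass that threshold. In edgeR's quasi-likelihood test with Benjamini-Hochberg adjustment over all genes tested, 4 of the 10 genes rose at an adjusted p under 0.05, namely Acta1, Cnn1, Myl9 and Actg2, against 11.1% of the genes tested that rose by the same rule. Of these, Acta1 and Cnn1 also exceeded a fold change of 2, against 6.69% of the genes tested. None of the 10 genes fell at that adjusted p, against 10.2% of the genes tested, and the count was also 0 at an unadjusted p under 0.05 and with DESeq2 and limma. The fitted log2 fold change was above 0 for all 10 genes, compared with 48.5% of the genes tested, and ran from 0.10 for Tagln to 2.53 for Acta1. The median over the 10 genes was 0.63, whereas the median over all genes tested was -0.02. The FPKM of every GOF library lay above every control library for 5 of the 10 genes, a pattern held by 20.3% of the genes tested, and the groups overlapped for the other 5. In bulk libraries, a change in how many cells express a gene and a change in RNA per cell cannot be told apart. With the animal as a replicate block, a fit that leaves 1 residual degree of freedom, the genes past both thresholds were 4, with Actg2 and Myh11 joining Acta1 and Cnn1.

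**Figure D1:**
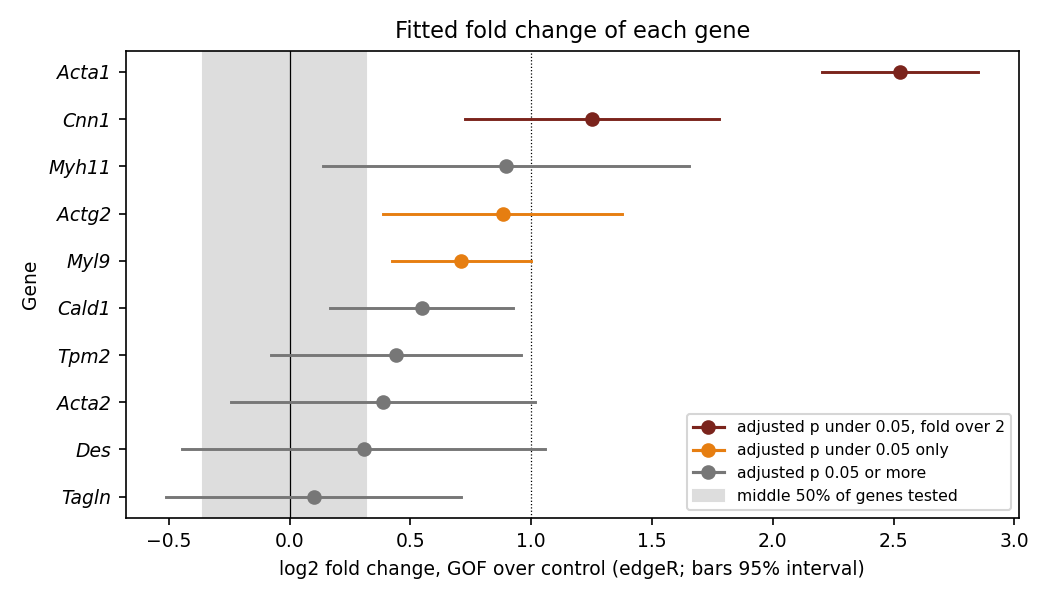
Fitted log2 fold change of GOF over control for each of the 10 genes (x axis, edgeR, point) with its 95% interval (bar), colored by the thresholds passed, beside the middle 50% of all genes tested (grey band) and the 2-fold line (dotted). Acta1 at 2.53 stands clear of the other 9 genes, whose estimates run from 0.10 to 1.25, and the intervals of Acta2, Tpm2, Des and Tagln include 0.

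Among the actins, Acta2 was the most abundant of the 10 genes in both groups. It lies on the minus strand of chromosome 19 from 34241090 to 34255590 (mm10; identifier ENSMUSG00000035783.8). Its level was 2171, 1634 and 1549 FPKM in Control replicates 0, 1 and 2, and 2026, 1790 and 3349 FPKM in GOF replicates 0, 1 and 2. The groups overlapped, and GOF replicate 2 stood well above the other 5 libraries. By mean FPKM, Acta2 was in place 16 in control and in place 8 in GOF samples. The 21380 genes ranked are the protein-coding genes with a usable estimate in all 6 libraries. Actb (β-actin), at 3460 to 3746 FPKM in control, was therefore not ranked, nor were Col3a1, Postn and Thbs1. The log2 fold change of Acta2 was 0.39 (standard error 0.27, 95% interval -0.24 to 1.02, adjusted p = 0.352 from edgeR), and it was 0.08 without GOF replicate 2. The interval leaves room for a fold of 2.02 and for no difference.

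Acta1 encodes α-skeletal actin, the actin of skeletal muscle fibers, which differs little from Acta2 in sequence. It lies on the minus strand of chromosome 8 from 123891769 to 123894751 (ENSMUSG00000031972.4), inside the span of Gm20388 on the opposite strand, with no overlap of their exons. Its level was 22.7, 26.4 and 25.5 FPKM in Control replicates 0, 1 and 2, and 171, 141 and 137 FPKM in GOF replicates 0, 1 and 2. Each GOF library was above each control library, and the spread within a group was small beside the gap, with a coefficient of variation of 7.82% in control and 12.5% in GOF samples. Acta1 rose 5.76-fold (95% interval 4.61 to 7.21), which is 2.53 on the log2 scale (standard error 0.14, adjusted p = 0.000105 by edgeR), and moved from place 2969 to place 501 among the protein-coding genes ranked. It ranged from 2.45 to 2.68 over the 19 alternative fits and passed the adjusted p in each. No stretch of 100 bases in the annotated transcripts of Acta1 occurs in those of another gene, Acta2 and Actg2 included, although the fragments of Acta1 were not whole numbers in any library. Gm20388 was listed at 0 to 23.3 FPKM over the libraries, and its part in the fragments of Acta1 was not tested.

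Actg2 encodes γ-enteric actin, the form of visceral smooth muscle, and lies on chromosome 6 from 83512905 to 83536265 (minus strand, ENSMUSG00000059430.9). Its level was 88.5, 89.8 and 100.1 FPKM in Control replicates 0, 1 and 2, and 184, 120 and 227 FPKM in GOF replicates 0, 1 and 2. The controls were close together, and each GOF library was above them, GOF replicate 1 by the least. Actg2 rose, at 0.88 on the log2 scale (standard error 0.21, 95% interval 0.38 to 1.38, adjusted p = 0.0250 from edgeR). The call was lost in 4 of the 6 fits that left out a library, without Control replicate 0, 1 or 2 or GOF replicate 0, with the adjusted p between 0.0535 and 0.0848. In the fit with the animal as a replicate block its log2 fold change was 1.10 and the adjusted p was 0.00444 (edgeR).

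Taken as shares of the FPKM summed over Acta1, Acta2 and Actg2, Acta1 made up 0.993%, 1.51% and 1.52% in Control replicates 0, 1 and 2. In GOF replicates 0, 1 and 2 its share was 7.19%, 6.87% and 3.69%. Acta2 remained the main transcript of the 3, with 92.5% to 95.1% in control and 85.1% to 90.2% in GOF samples. These shares, like the ratio of Cnn1 to Tagln given further on, were chosen after the values were seen and were not tested.

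Sequences upstream of both α-actins are shown because these close relatives differed in their response, that of Myl9 because it also holds a CArG box, and that of Cnn1 because it was the other gene past both thresholds. Each was read from the 250 bases before the start given by RefSeq on GRCm38.p6, 5′ to 3′ on the strand of the gene, with matches to the CArG box in capitals, allowing 1 G or C in its A and T rich centre. The start in RefSeq differs from that of the gene spans given here, which come from the GENCODE annotation, and 217 bases of the window of Acta2, 44 of that of Myl9 and 37 of that of Cnn1 lie in a GENCODE exon of the same gene. For Myl9 and Cnn1 the bases before that exon are shown, and for Acta2, whose matches both lie in it, each match with 10 bases on either side. The window of Acta1 lies wholly before its GENCODE span.
Acta1, chr8:123894776-123895025, minus strand: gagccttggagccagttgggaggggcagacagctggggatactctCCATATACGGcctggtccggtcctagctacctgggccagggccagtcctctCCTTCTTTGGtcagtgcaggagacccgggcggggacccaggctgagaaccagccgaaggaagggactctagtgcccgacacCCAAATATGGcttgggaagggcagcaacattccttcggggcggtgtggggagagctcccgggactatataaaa
Acta2, chr19:34255438-34255467, minus strand: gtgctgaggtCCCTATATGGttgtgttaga
Acta2, chr19:34255388-34255417, minus strand: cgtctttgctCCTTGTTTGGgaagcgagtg
Myl9, chr2:156775214-156775419, plus strand: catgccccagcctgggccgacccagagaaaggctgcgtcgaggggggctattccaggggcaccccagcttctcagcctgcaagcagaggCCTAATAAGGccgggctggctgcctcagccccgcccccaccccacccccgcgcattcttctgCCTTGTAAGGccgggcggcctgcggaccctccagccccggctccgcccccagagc
Cnn1, chr9:22099003-22099215, plus strand: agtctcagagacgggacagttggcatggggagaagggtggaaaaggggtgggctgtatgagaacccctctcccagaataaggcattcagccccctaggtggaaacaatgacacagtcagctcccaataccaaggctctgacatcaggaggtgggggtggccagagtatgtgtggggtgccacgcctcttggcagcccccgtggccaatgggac
Windows were found for 7 of the 10 genes, namely Acta2, Cnn1, Myl9, Tpm2, Acta1, Cald1 and Des, with 8 windows in all since Cald1 had 2, and Tagln, Actg2 and Myh11 had none. The CArG box without a G or C in its centre, which reads the same on both strands, was in the windows of Acta1 (-73 to -64) and Myl9 (-161 to -152). It was in 1.47% of the 32851 RefSeq windows of this length. With 1 G or C allowed, Acta2 had 2 matches (-84 to -75 and -34 to -25), Acta1 2 more and Myl9 1 more, and 8.59% of all windows had at least 1. The letters CTTTGAT or CTTTGAA, forms of the site bound by the Tcf and Lef partners of β-catenin, were searched on both strands. They were in none of the windows of these 7 genes and in 7.48% of all windows. A match is a description and not a binding site, and the absence of one says only that these letters are not in that window.

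**Figure D2:**
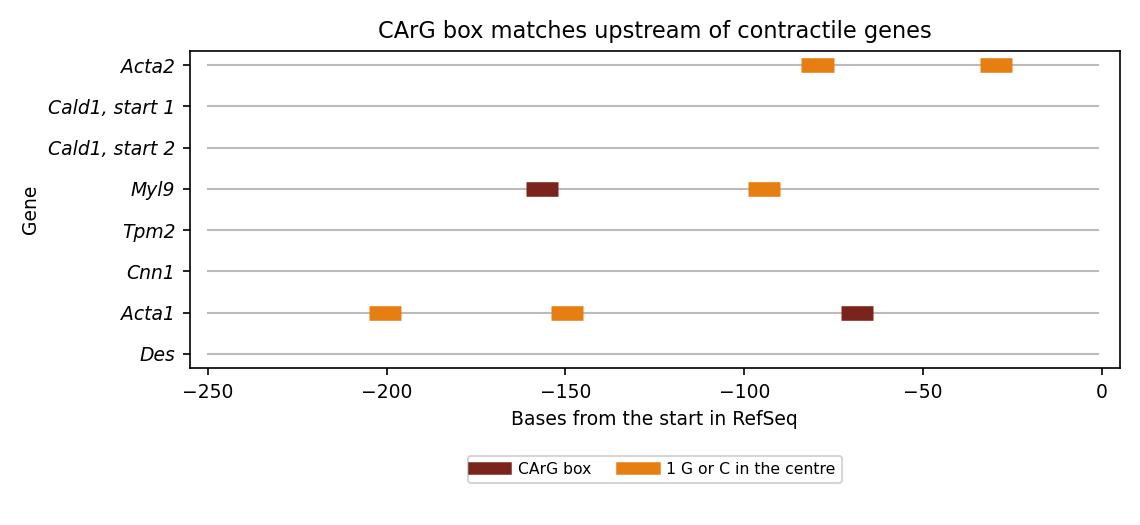
Matches to the CArG box in the 250 bases before the start in RefSeq (x axis, bases from that start) of the 7 contractile genes with a RefSeq window, Cald1 having 2 starts. Dark bars are matches to the CArG box and light bars matches with 1 G or C in the centre, and they are seen for Acta2, Myl9 and Acta1.

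The myosin genes differed in how evenly they moved. Myl9, which encodes the regulatory light chain of smooth muscle myosin, lies on chromosome 2 from 156775420 to 156781658 (plus strand, ENSMUSG00000067818.6). It was at 362, 297 and 381 FPKM in Control replicates 0, 1 and 2, and at 626, 569 and 557 FPKM in GOF replicates 0, 1 and 2. The groups were well apart and each was tight, with coefficients of variation of 12.7% and 6.33%. Myl9 rose by less than 2-fold, at 0.71 on the log2 scale (standard error 0.12, 95% interval 0.42 to 1.0, adjusted p = 0.00724 from edgeR). Without Control replicate 1 the adjusted p was 0.0504.

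Myh11 encodes the heavy chain of smooth muscle myosin, the most specific marker of differentiated smooth muscle among the 10 genes. It lies on chromosome 16 from 14194535 to 14291372 (minus strand, ENSMUSG00000018830.8). It was at 6.95, 10.8 and 12.4 FPKM in Control replicates 0, 1 and 2, and at 22.0, 10.9 and 25.3 FPKM in GOF replicates 0, 1 and 2. GOF replicate 1 lay within the range of the controls, whereas the other two GOF libraries were above it. The log2 fold change was 0.90 (standard error 0.33, 95% interval 0.14 to 1.65, adjusted p = 0.0920 from edgeR), which did not pass the threshold. It was 1.18 without GOF replicate 1 (adjusted p = 0.0272) and 1.34 with the animal as a replicate block (adjusted p = 0.00866, both edgeR), and the adjusted p was 0.0271 with DESeq2. At these levels Myh11 stood in place 5876 among the protein-coding genes ranked in control and 3780 in GOF samples, far below the Myl9 gene in places 193 and 124.

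Of the genes whose products bind along actin, Cnn1 was the one past both thresholds. Cnn1 encodes calponin, which slows the myosin motor on actin, and lies on chromosome 9 from 22099216 to 22109630 (plus strand, ENSMUSG00000001349.4). It was at 119, 66.7 and 75.5 FPKM in Control replicates 0, 1 and 2, and at 196, 189 and 248 FPKM in GOF replicates 0, 1 and 2. The groups did not overlap, and the highest library of each group came from animal A. Cnn1 rose 2.38-fold (95% interval 1.65 to 3.43), or 1.25 on the log2 scale (standard error 0.23, adjusted p = 0.00824 by edgeR), and it passed both thresholds with each library left out in turn (1.10 to 1.52). Tested against a 2-fold change itself, its adjusted p was 0.525 (edgeR), whereas Acta1 passed.

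Tagln encodes transgelin (SM22α), a calponin relative that bundles actin, and is among the most used markers of smooth muscle. It lies on chromosome 9 from 45929619 to 45936058 (minus strand, ENSMUSG00000032085.4). It was at 1268, 726 and 700.3 FPKM in Control replicates 0, 1 and 2, and at 876, 938 and 1156 FPKM in GOF replicates 0, 1 and 2. Control replicate 0 was the highest of the 6 libraries and above all GOF libraries, so the groups overlapped. The log2 fold change was 0.10 (standard error 0.26, 95% interval -0.51 to 0.71, adjusted p = 0.821 from edgeR), and leaving out single libraries moved it between -0.063 and 0.42. Exons of Pcsk7 overlap Tagln on the opposite strand, and 48.3% of the 100-base stretches of Tagln transcripts are shared with Pcsk7 and Gm48529. The use of strand in the counting is not given in the sources used here, and Pcsk7 itself was listed at 8.06 to 12.4 FPKM, low beside Tagln.

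Set against Tagln, Cnn1 kept a steady ratio within each group. The FPKM of Cnn1 was 9.34%, 9.18% and 10.8% of that of Tagln in Control replicates 0, 1 and 2, and 22.4%, 20.1% and 21.4% in GOF replicates 0, 1 and 2. The 3 values of each group lay close together although both genes were highest in Control replicate 0 among the controls and in GOF replicate 2 among the GOF samples.

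Tpm2 and Cald1 encode β-tropomyosin, which lies along the actin filament, and caldesmon, which binds actin, myosin and tropomyosin. Tpm2, on chromosome 4 from 43514711 to 43523765 (minus strand, ENSMUSG00000028464.11), was at 374, 266 and 287 FPKM in Control replicates 0, 1 and 2, and at 402, 360 and 530.0 FPKM in GOF replicates 0, 1 and 2. Only GOF replicate 1 lay within the control range, and Control replicate 0 was the highest control. The log2 fold change was 0.44 (standard error 0.22, 95% interval -0.08 to 0.96, adjusted p = 0.207 from edgeR). Cald1, on chromosome 6 from 34598500 to 34775473 (plus strand, ENSMUSG00000029761.11), was at 315, 383 and 400 FPKM in Control replicates 0, 1 and 2, and at 587, 496 and 536 FPKM in GOF replicates 0, 1 and 2. Here every GOF library was above every control, with Control replicate 0 the lowest. Its log2 fold change was 0.55 (standard error 0.16, 95% interval 0.17 to 0.92), at an adjusted p of 0.0506 from edgeR. The adjusted p of Cald1 was 0.00218 with DESeq2 and 0.0484 without a filter on low counts (edgeR).

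Des encodes desmin, the muscle intermediate filament, and lies on chromosome 1 from 75360329 to 75368579 (plus strand, ENSMUSG00000026208.9). It was at 0.666, 0.851 and 1.12 FPKM in Control replicates 0, 1 and 2, and at 1.28, 0.628 and 1.27 FPKM in GOF replicates 0, 1 and 2, from 56 to 139 fragments per library. The groups overlapped and GOF replicate 1 was the lowest of all 6 libraries. The log2 fold change was 0.31 (standard error 0.32, 95% interval -0.44 to 1.06, adjusted p = 0.541 from edgeR). The coefficient of variation of its FPKM was 25.9% in control and 35.4% in GOF samples.

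**Figure D3:**
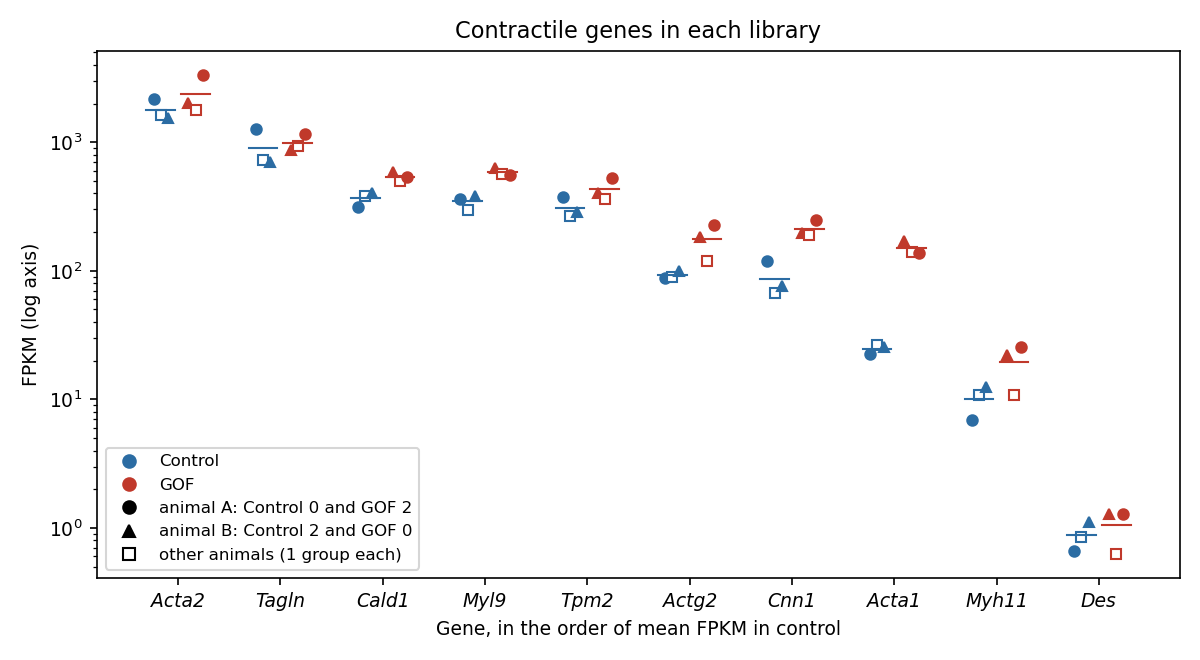
FPKM (y axis, log scale) of the 10 genes in each control (blue) and GOF (red) library, ordered by mean FPKM in control. Symbols give the animal, short lines the mean of 3 libraries. Levels run from 1549 FPKM and more for Acta2 to near 1 FPKM for Des, and the groups separate fully for Acta1, Cnn1, Actg2, Myl9 and Cald1.

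The order of the levels was nearly the same in both groups. In control samples the mean FPKM was 1785 for Acta2, 898 for Tagln, 366 for Cald1, 347 for Myl9, 309 for Tpm2, 92.8 for Actg2, 86.9 for Cnn1, 24.9 for Acta1, 10.1 for Myh11 and 0.879 for Des. The ranges of Cald1, Myl9 and Tpm2 overlapped as neighbours in this order, as did those of Actg2 and Cnn1, and the other neighbours were apart. In GOF samples the mean FPKM was 2389 for Acta2, 990.0 for Tagln, 584 for Myl9, 540 for Cald1, 431 for Tpm2, 211 for Cnn1, 177 for Actg2, 149.7 for Acta1, 19.4 for Myh11 and 1.06 for Des. There the range of Acta1 overlapped that of Actg2, whereas in control samples Acta1 lay below both Cnn1 and Actg2 in every library. Within the groups, GOF replicate 1 was the lowest GOF library for 7 of the 10 genes and the highest for none, and GOF replicate 2 was the highest for 6. Control replicate 0 was the highest control for 4 genes (Acta2, Tagln, Cnn1 and Tpm2) and the lowest for 5 (Actg2, Acta1, Myh11, Cald1 and Des).

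Cultures of the same animal were then compared directly. In animal A, GOF replicate 2 was above Control replicate 0 for 9 of the 10 genes, Tagln being the exception at a log2 ratio of FPKM of -0.13, and the median log2 ratio was 0.85. In animal B, GOF replicate 0 was above Control replicate 2 for all 10 genes, with a median of 0.64. The log2 ratio of Acta1 was 2.59 in animal A and 2.75 in animal B. For Cnn1 it was 1.06 and 1.38, for Myl9 0.62 and 0.72, and for Tpm2 0.50 and 0.49, so these genes moved by similar amounts in both animals. Myh11 differed more, with 1.87 in animal A and 0.83 in animal B, as did Des with 0.94 and 0.20. Acta2 was at 0.63 and 0.39. With 2 animals these ratios were not tested on their own.

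**Figure D4:**
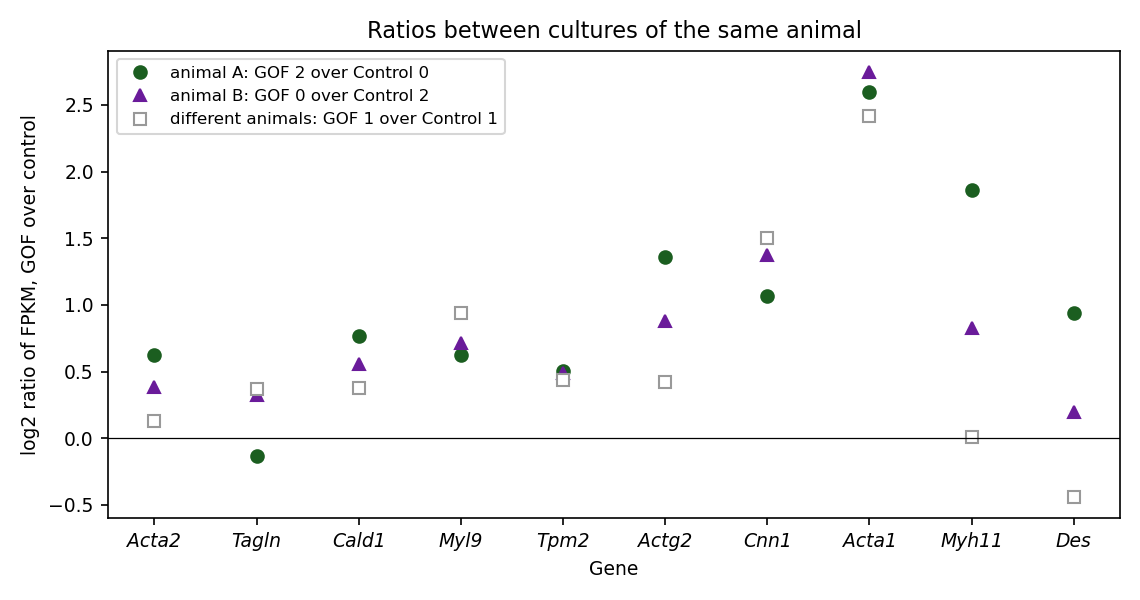
log2 ratio of FPKM in GOF over control (y axis) for each gene between cultures of animal A (filled circles) and of animal B (filled triangles), with the unpaired libraries of different animals as open squares. All ratios within an animal are above 0 except that of Tagln in animal A (-0.13), and Acta1 is the highest in both.

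The genes whose pattern over the 6 libraries was most like that of Acta2 were Rrp36, Tmed5, Rnd3, Slc33a1 and Maoa. Likeness was the root mean square difference of log2 FPKM centred per gene, among 5967 protein-coding genes averaging at least 10 FPKM, and it was 0.060 for Rrp36 and 0.091 for Maoa against a median of 0.39 over these genes. Rnd3, for example, was at 69.1, 57.8 and 59.7 FPKM in Control replicates 0, 1 and 2 and at 72.2, 66.8 and 120.1 FPKM in GOF replicates 0, 1 and 2, with the same high GOF replicate 2. Among the contractile genes, Tpm2 was the closest to Acta2 at 0.13, with 32 genes closer, and Tagln came next at 0.24, with 461 closer. Actg2 followed at 0.35. Cald1 (0.388), Myl9 (0.397), Cnn1 (0.51) and Myh11 (0.54) were farther from Acta2 than the median gene (0.386). Acta1 was the farthest at 1.17, so the 2 α-actins had unlike patterns.

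The wider actin cytoskeleton was read from lists of related genes. For comparison with the counts of each list below, 11.1% of all genes tested rose and 10.2% fell at an adjusted p under 0.05 (edgeR). The share that rose past both thresholds was 6.69%. Of 20 cytoplasmic actin and actin filament genes, 18 were tested, none passed both thresholds, and 3 rose at an adjusted p under 0.05. The count past both thresholds comes from edgeR, and 5 of these genes were higher at an unadjusted p under 0.05. Their median log2 fold change was 0.24. Actg1, the cytoplasmic γ-actin gene, was between 1185 and 1233 FPKM in control and between 1792 and 1910 FPKM in GOF samples and rose by 0.62 (adjusted p = 0.0252), while Actn1, the α-actinin that cross-links stress fibers, rose by 0.70 (adjusted p = 0.0140, edgeR). Both calls were lost without Control replicate 1 or 2 or GOF replicate 0, and that of Actg1 also without GOF replicate 1 (adjusted p 0.053 to 0.105). Actb, the cytoplasmic β-actin gene, has no usable value in GOF samples, where Cuffdiff marked it as having too many fragments and listed it at 0. Tpm1 had a failed estimate in GOF replicate 1 and was not tested. Its listed values were 595 to 714 FPKM in control and 879 to 1091 FPKM in GOF samples.

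Of 16 further genes of the smooth muscle cytoskeleton, 15 were tested and 3 rose at an adjusted p under 0.05, with a median log2 fold change of 0.36. Synm, which encodes synemin, an intermediate filament partner of desmin, was the only one past both thresholds. It was at 0.211 to 0.287 FPKM in control and 0.468 to 1.92 FPKM in GOF samples, a log2 fold change of 2.11 (adjusted p = 0.0176). Hspb6, a small heat shock protein of smooth muscle, rose by 0.90 (adjusted p = 0.00602) and Mrvi1, a mediator of relaxation, by 0.72 (adjusted p = 0.0131, all edgeR). The adjusted p of Synm was 0.0516 to 0.0635 without Control replicate 1 or 2 or GOF replicate 0. With the animal as a replicate block, Itga8, an integrin subunit of smooth muscle, also passed both thresholds (log2 fold change 1.29, adjusted p = 0.0258, edgeR).

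Of SRF and 8 related factors, all 9 were tested and 2 passed both thresholds in opposite directions. Srf itself was at 11.4 to 14.4 FPKM in control and 12.7 to 14.6 FPKM in GOF samples, a log2 fold change of 0.09 (adjusted p = 0.704). Myocd, the SRF cofactor that drives the smooth muscle program, rose by 2.14 (adjusted p = 0.0124), although its level stayed low, at 0.101 to 0.222 FPKM in control and 0.356 to 0.691 FPKM in GOF samples. Fhl2, a LIM protein that binds SRF and β-catenin, was at 239 to 303 FPKM in control and at 95.4 to 138 FPKM in GOF samples, and fell by 1.29 on the log2 scale (adjusted p = 0.00443, all edgeR). The adjusted p of Myocd was 0.0536 without Control replicate 1. The median of the list was 0.14. Srf was named after its value was seen.

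Among 10 genes known to respond to YAP or to actin-sensitive SRF cofactors, 9 were tested, 6 rose and 1 fell at an adjusted p under 0.05, with a median log2 fold change of 0.65. Crim1, which encodes a membrane protein that binds growth factors, rose by 1.16 (adjusted p = 0.0116), and F3, the tissue factor that starts coagulation, fell by 1.51 on the log2 scale (adjusted p = 0.000853, edgeR). The 6 genes that rose became 1 without GOF replicate 0, where the adjusted p of Crim1 was 0.0504 (edgeR), 2 without Control replicate 1, 3 without Control replicate 2 or GOF replicate 2, 4 without GOF replicate 1 and 7 without Control replicate 0. Thbs1 had too many fragments in all 6 libraries and has no value.

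TGF-β is known as the main inducer of Acta2 in fibroblasts. Of 13 genes of its pathway, 4 rose and 2 fell at an adjusted p under 0.05, and the median log2 fold change was 0.03. Tgfb2, a ligand, was at 2.25 to 3.04 FPKM in control and 11.4 to 27.4 FPKM in GOF samples, a log2 fold change of 2.73 (adjusted p = 0.00111). Tgfbr3, a coreceptor, fell by 1.89 on the log2 scale (adjusted p = 0.0231, all edgeR), and its adjusted p was 0.0525 to 0.0682 in 5 of the 6 fits that left out a library, Control replicate 0 being the exception. Tgfbr1, a receptor, was the other gene that fell, by less than 2-fold (0.71 on the log2 scale, adjusted p = 0.00892, edgeR). Tgfbr2, another receptor, was among the genes that rose, also by less than 2-fold (0.71, adjusted p = 0.0403, edgeR). With the animal as a replicate block, Ltbp1, which encodes a protein that stores latent TGF-β in the matrix, also passed both thresholds (1.51, adjusted p = 0.00387, edgeR). The median of the list was -0.01 with library totals and -0.02 with upper-quartile factors.

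The matrix genes that accompany contractile genes in myofibroblasts moved in both directions. Of 13 such genes 11 were tested, with 3 higher and 3 lower at an adjusted p under 0.05 and a median log2 fold change of 0.00. Lrrc15, a membrane protein of activated fibroblasts, rose by 3.13 (adjusted p = 0.00700), although GOF replicate 2 at 6.95 FPKM was far below the 24.2 and 27.0 FPKM of GOF replicates 0 and 1. Col1a2, a chain of type I collagen, fell by 1.18 on the log2 scale (adjusted p = 0.0375), Fn1, fibronectin, fell by 1.33 (adjusted p = 0.0176) and Adam12, a protease of activated fibroblasts, fell by 1.41 (adjusted p = 0.00945, all edgeR). The adjusted p of Col1a2 was 0.0919 to 0.116 without Control replicate 1 or 2 or GOF replicate 1 or 2, and that of Fn1 was 0.0658 without GOF replicate 1. With the animal as a replicate block, Col1a2 fell by 0.88 on the log2 scale (adjusted p = 0.0186, edgeR), less than 2-fold. The median of the list was -0.02 with library totals and -0.05 with upper-quartile factors. Col3a1 and Postn had too many fragments in the 3 control libraries and were not tested, so the counts and the median leave them out. In the 3 GOF libraries both had a usable estimate, at 644 to 913 FPKM for Col3a1 and 1033 to 1145 FPKM for Postn.

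Of 7 intermediate filament genes around desmin, 6 were tested and 4 rose at an adjusted p under 0.05, with a median log2 fold change of 0.83. Nes, which encodes nestin, was at 3.07 to 4.18 FPKM in control and 14.3 to 18.2 FPKM in GOF samples and rose by 2.16 (adjusted p = 0.000434). Cryab, the chaperone of desmin, rose by 1.13 (adjusted p = 0.00710, both edgeR), and its change was under 2-fold without Control replicate 0 (0.98) or GOF replicate 0 (0.95). The 4 genes that rose became 2 without Control replicate 1, Control replicate 2 or GOF replicate 0. Plec, which encodes plectin, a linker of intermediate filaments, was past both thresholds once the animal was the replicate block (1.14, adjusted p = 0.00382, edgeR).

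**Figure D5:**
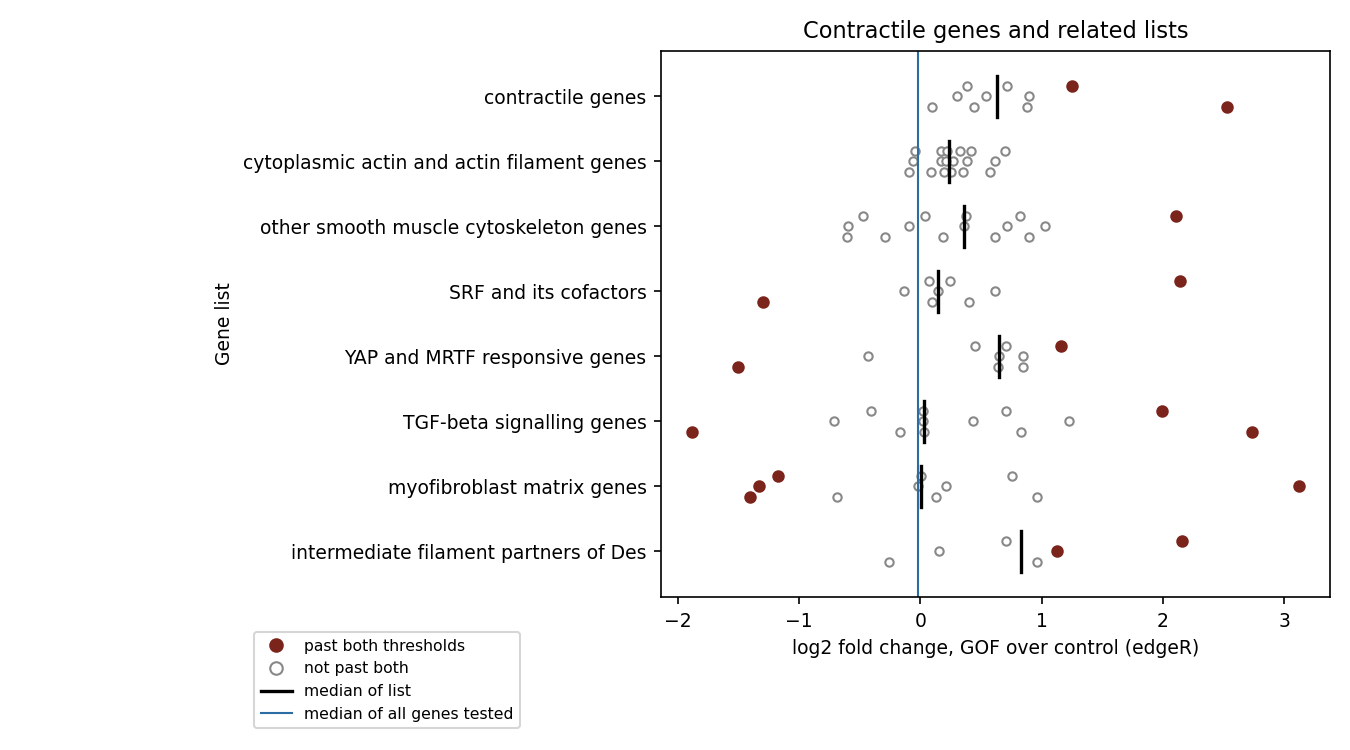
log2 fold change of GOF over control (x axis, edgeR) of each tested gene in the contractile set and in 7 related lists, with the median of each list (black bar) and of all genes tested (blue line). Filled points passed both thresholds. The contractile genes all lie right of 0, Tagln nearest to it at 0.10, and each of the 7 related lists has genes on both sides. The medians of the YAP and MRTF list (0.65) and of the intermediate filament list (0.83) lie right of that of the contractile genes (0.63). Those of the other lists lie left of it.

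Markers of cell types were read beside these results. Of 8 dermal fibroblast markers, 2 fell past both thresholds (Dcn by 1.67 and Col1a2 by 1.18 on the log2 scale), and their summed FPKM was 2366 to 3117 in control and 1062 to 1910 in GOF samples, with Dcn and Col1a2 the largest terms in control samples. The other 6 did not pass the adjusted p and lay on both sides of 0, with Twist2 at 0.64, Dpt at 0.57, Thy1 at 0.29, Col1a1 at 0.00, Pdgfra at -0.79 and Lum at -0.99. The 11 pericyte markers, a mural cell type that also expresses contractile genes, summed to 98.8 to 128 FPKM in control and 56.5 to 78.9 FPKM in GOF samples. Of these Ndufa4l2 fell by 2.73 on the log2 scale (adjusted p = 0.00670), none rose, and Higd1b and Vtn had at most 3 fragments in every library. Without Control replicate 0, 5 of the 9 pericyte markers tested fell at the adjusted p and 3 of them past both thresholds. Once the animal was the replicate block, 3 dermal fibroblast markers fell past both thresholds, Pdgfra and Lum among them (-1.18 and -2.42). In that fit Col1a2 fell by less than 2-fold, and Notch3 of the pericyte list rose (1.33, adjusted p = 0.00524, edgeR). The part of these shifts in the contractile genes was not tested. The 26 skeletal muscle markers summed to 5.62 to 10.2 FPKM in control and 6.41 to 8.21 FPKM in GOF samples, ranges that overlapped, while Acta1 was at 137 FPKM or more in GOF samples. Myod1, Myf5, Pax7, Myh7 and Ckm had at most 3 fragments in every library, and Pax7 was listed at 0 in all 6. Of the 10 skeletal muscle markers tested, Chrna1, a subunit of the acetylcholine receptor, rose by 2.09 (adjusted p = 0.00245, edgeR) and reached 0.955 FPKM at most. The summed FPKM of 6 endothelial markers was 4.37 to 4.57 in control and 2.71 to 6.60 in GOF samples, with Kdr higher (1.77) and Tek lower (-2.27). That of 6 macrophage markers was 10.8 to 19.4 and 8.60 to 24.9, with Csf1r higher (1.52). The 6 keratinocyte markers summed to 0.469 to 0.553 and 2.88 to 6.72, where Dsp, a desmosome gene, rose by 5.74 and Krt14 and Krt1 had at most 3 fragments in every library. The 5 adipocyte markers summed to 10.1 to 12.1 and 2.91 to 4.78, where Fabp4 (-1.79) and Pparg (-1.28) fell.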

How the data were processed

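Dermal fibroblasts were profiled as 3 control and 3 GOF libraries, prepared with a stranded kit. Per the submitters' processing notes, TopHat (genome mm10) and Cuffdiff were run by the authors, and their versions and use of strand are not given in the sources used here. The estimated counts were deposited as fragments per gene and library without scaling, and 4.95% were not whole and were rounded. The FPKM values were deposited by the authors after Cuffdiff scaled fragments by transcript length and between libraries. In the all-gene table, 97.9% of identifiers were paired with a symbol through a GRCm38 annotation, 32 genes with a failed estimate were left out, and 3 further per-library columns stayed unused. None of the 10 genes was in the lncRNA table, which was not used.

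Fragments of all genes were tested with the quasi-likelihood test of edgeR 4.0.16 in R 4.3.3, after filterByExpr and TMM scaling, and adjusted by Benjamini-Hochberg. The thresholds were 0.05 for the adjusted p and 2 for the fold change. limma 3.58.1 and DESeq2 1.42.0 served as alternatives. The other alternatives were library totals or upper-quartile factors, no filter, a minimum FPKM of 1 in 3 libraries, log2(FPKM + 1) or log2(FPKM + 0.1) in limma, a test against a fold change of 2, failed estimates kept, a replicate block by label number or animal, and each library left out. Added after the data were seen were robust estimation and limma-voom with a correlation between cultures of an animal. The edgeR script was tested on simulated data. The p-values measure the spread between these libraries. The animals were read from the numbers that open the sample titles. They pair 2 control with 2 GOF libraries, whose deviations from the group means correlated at 0.41 and 0.46 over genes. The block by animal is given where it changes a call.

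The 10 genes and the lists were chosen with earlier results of these data known. All 10 are named. From each list up to 4 genes past both thresholds are named, by adjusted p, or where fewer than 2 passed, the 2 with the smallest adjusted p, besides genes whose estimate failed. Some others are named beside a count, so the genes named are not all of those counted. The 5 genes most like Acta2 were taken from tested protein-coding genes averaging at least 10 FPKM. Promoter windows came from RefSeq (GRCm38.p6). Another list and a gene chosen by this rule are not reported here.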

Additional observations from a re-analysis of the deposited data

How the results depend on the processing

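Over 19 alternatives, the direction held for each contractile gene except Tagln, which had a log2 fold change of -0.063 to 0.42 with single libraries left out. The median over the 10 genes stayed between 0.57 and 0.70. Genes past both thresholds numbered 1 when tested against a 2-fold change, 4 when the replicate block was the animal, and 2 to 4 with a library left out, 4 coming without GOF replicate 1. Genes past the adjusted p alone numbered 1 when tested against a 2-fold change and 2 in the replicate block by label number, and 2 to 5 with a library left out, 2 coming without Control replicate 1. They numbered 6 with DESeq2 and 6 in limma-voom with the correlation of an animal's cultures (Cnn1, Myl9, Actg2, Acta1, Myh11 and Cald1), and 5 in the block by animal and with no filter. In that limma-voom fit 3 genes (Cnn1, Acta1 and Myh11) passed both thresholds. Of the 10 genes, only Actg2 and Myh11 changed in whether they passed both thresholds in the block by animal. The block by number joins cultures of different animals, and libraries with the same number had correlations of deviations of -0.41, 0.05 and -0.44. Deviations from a mean of 3 libraries cancel out within a group. These correlations are therefore not independent of those between cultures of the same animal. The count over all genes was 1906, against 877 with limma on log2(FPKM + 1), 618 when tested against a 2-fold change and 1311 to 1961 with a library left out. Leaving out GOF replicate 0 gave the lowest of these counts. The cause of these changes was not tested, except that the 2-fold test asks for a larger effect by construction. Des, with 56 to 139 fragments in a library, had a 95% interval of -0.44 to 1.06 on the log2 scale.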
